A study of Drosophila melanogaster with 8 samples.

Results

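The central nervous system (CNS) of first-instar Drosophila melanogaster larvae that lack both elav and fne was compared with that of larvae that lack elav alone, to describe which transcripts moved once fne was lost as well. The double mutant, elav5fne, had 3 total RNA libraries, and the single mutant, elav5, had 2. Both mutants carry the elav5 allele and the double mutant carries a mutation of fne as well, so loss of elav is common to the 5 libraries. Another 3 libraries, which make 8 in all, came from the wild-type strain Canton-S and are set beside them. Viable homozygous larvae were picked by a visible marker and their CNS was dissected. Of 17807 genes listed, the 10399 with at least 1 CPM (a read count scaled to a common library total) in at least 2 of the 5 mutant libraries were compared, and 7408 were not. The libraries held between 30038106 and 38056274 reads in genes, so 3 reads, taken as the floor of detection for counting error alone, were worth 0.0788 to 0.0999 CPM. Neither mutant is described as having been made in the Canton-S background, neither allele is described further in the labels, and nothing says whether libraries came from separate sets of animals. The p-values therefore measure only the spread between these samples.

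ELAV/Hu proteins bind RNA through RNA recognition motifs and are best known in neurons, where they change which exons are spliced in and which 3' ends are used. The fly has 3 members, elav, fne and Rbp9. ELAV is largely nuclear, whereas the main form of FNE is largely cytoplasmic, and FNE is known from earlier fly work to take over part of the nuclear role of ELAV when elav is lost. Gene-level counts, as used here, show how much RNA of a gene there is and not which exon or 3' end it carries.

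The transcripts of the targeted genes followed the labels in every library. fne (FBgn0086675, chromosome X, 12917477 to 12950417, dm6 coordinates from the Ensembl annotation) had 141, 179 and 127 CPM in elav5fne, against 938 and 1129 CPM in elav5 and 960, 1045 and 1038 CPM in Canton-S. The elav5 libraries lay on both sides of the Canton-S libraries for fne, and the fall in elav5fne was 2.79 on the log2(CPM + 1) scale (SE 0.15, limma adjusted p = 1.07e-05). elav (FBgn0260400, chromosome X, 509235 to 523226) had 53.2, 61.0 and 53.7 CPM in elav5fne, 33.4 and 24.4 CPM in elav5 and 602, 620 and 599 CPM in Canton-S. Both mutants were far below Canton-S, and the residual elav signal was 0.94 higher on the log2 scale in elav5fne than in elav5 (SE 0.13, adjusted p = 0.000747). Rbp9 had 11.2, 14.7 and 28.8 CPM in elav5fne, 12.4 and 11.8 CPM in elav5 and 7.14, 7.90 and 7.67 CPM in Canton-S. The elav5fne libraries overlapped those of elav5 for Rbp9, and the difference of 0.44 did not pass the test (SE 0.33, adjusted p = 0.296).

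**Figure D1:**
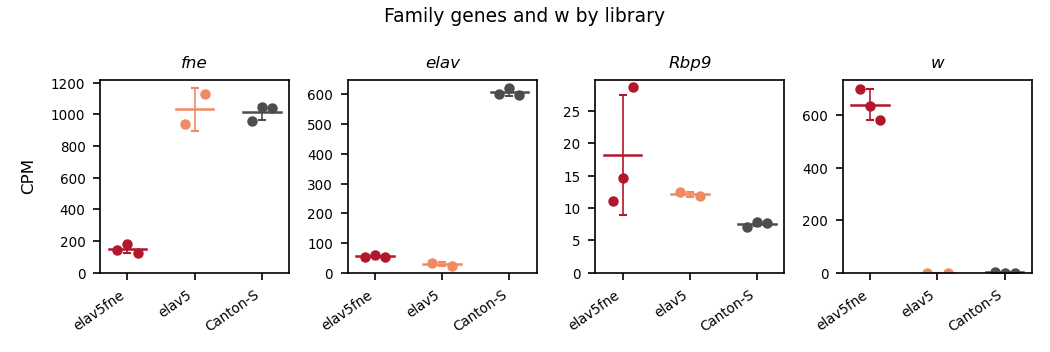
CPM of fne, elav, Rbp9 and w in each library, on linear axes that start at 0, with elav5fne (3 libraries), elav5 (2) and Canton-S (3) side by side; points are libraries, lines the group mean and bars the SD. fne is low in elav5fne alone, elav is low in both mutants, and w is high in elav5fne alone.

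Genes beside the fne locus were read next, since a deletion or a marked chromosome can touch them. The receptor gene hec lies on the opposite strand with its 3' end 19 bases from the end of fne. It had 3.46, 5.02 and 3.05 CPM in elav5fne and 22.3 and 19.9 CPM in elav5, a fall of 2.21 on the log2 scale (SE 0.17, adjusted p = 4.43e-05). CG32642, the next tested gene after hec, had 1.37, 1.92 and 1.46 CPM in elav5fne and 0 and 0.0299 CPM in elav5, where 0.0299 CPM is under the floor, and it was called higher (1.34, SE 0.17, adjusted p = 0.000557). The 3 nearest tested genes on the other side of fne, CG4645, Brms1 and mRpL49, did not pass the test, nor did rad, which was called lower without elav5 library 2 (-0.43, adjusted p = 0.0187). mRpL49 was called lower with quantile normalization (-0.41, adjusted p = 0.0398). Of the 6 tested neighbours of elav, svr was called lower (-0.33, adjusted p = 0.0131) and asRNA:CR44891 higher (0.91, adjusted p = 0.0105), and both lost their calls without elav5 library 2 (adjusted p = 0.0557 for svr and 0.0594 for asRNA:CR44891). w, the eye pigment transporter gene that marks many transgenes and modified alleles in flies, had 700, 635 and 582 CPM in elav5fne, against 0.799 and 0.569 CPM in elav5 and 2.27, 0.636 and 0.762 CPM in Canton-S. It was the largest difference of all genes tested (8.57 on the log2 scale, SE 0.28, adjusted p = 3.27e-06). How the lines were made is not given in the labels, and the part of that in other differences was not tested.

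A large share of genes differed between the mutants. Loss of fne and other differences between the 2 lines cannot be told apart in this design. By limma with Benjamini-Hochberg adjustment and a threshold of 0.05, 4595 genes (44.2%) differed between elav5fne and elav5, 2840 higher (27.3%) and 1755 lower (16.9%). In 4594 of them the libraries of the genotypes did not overlap, which is 44.2% of the genes tested. Between elav5 and Canton-S the same fit called 2065 genes (19.9%), 871 higher (8.38%) and 1194 lower (11.5%), and between elav5fne and Canton-S it called 6166 (59.3%). These comparisons share libraries, so they are given side by side only. Of the genes tested, 567 had no elav5 library at 1 CPM or more and 152 had no elav5fne library there, so they passed the filter through the genotype where they were high. Among the 567, 356 were called higher in elav5fne, and among the 152, 123 were called lower, so these calls support nothing about direction. Genes named here that are among the 567 include w, CG32642, AkhR, wntD and Cyp6a13, and the list counts below include such genes. The excess of higher calls also depended on scaling. Of the calls between the mutants, 61.8% were higher with library totals, 50.7% with median-ratio scaling, 50.9% with TMM, 51.9% with DESeq2 and 43.1% with quantile normalization, and edgeR had 2155 higher of 4307. The median gene stood 0.14 higher on the log2 scale in elav5fne with library totals, 0.03 with median-ratio scaling, 0.04 with TMM and 0.07 lower (-0.07) with quantile normalization, and list medians below are to be read against the 0.14.

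To say which genes moved only at the step from elav5 to elav5fne, the 95% interval of the difference of elav5 minus Canton-S was used. It lay within 0.58 log2 units either side of 0 for 4436 genes (42.7%). Among them 1055 rose (10.1% of all genes tested) and 1080 fell (10.4%) between elav5 and elav5fne. They are called second-step genes below. The term says that any change in elav5 was small by this interval, and both differences contain the same elav5 libraries. Over all genes, 1080 of the 1755 that fell and 1055 of the 2840 that rose were second-step genes. The list counts of second-step genes below are to be read against these. The class was taken from the main fit only and was not recomputed under the alternatives.

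Libraries also differed in genes of tissues that border the CNS. The summed CPM of 26 muscle markers was 7764, 12338 and 25526 in elav5fne and 7863 and 3822 in elav5. That of 39 gut markers was 47.5, 346 and 1776 in elav5fne and 17.9 and 154 in elav5. That of 18 hemocyte markers was 934, 949 and 2316 in elav5fne and 484 and 127 in elav5. elav5fne library 3 was the highest for all 3 lists, and elav5 library 2 was the lowest for muscle and hemocytes. It was the lowest also for 125 trachea and cuticle markers, which summed to 414, 717 and 1560 CPM in elav5fne and 461 and 279 CPM in elav5. Of the 49 of these tested, 13 were called higher and 1 lower. Over all genes 27.3% were called higher, and the muscle and gut shares were near this. Of the 23 muscle, 21 gut and 17 hemocyte markers tested, 8 (34.8%), 6 (28.6%) and 10 were called higher, and 2 hemocyte genes lower. Without elav5 library 2 and elav5fne library 3 together, 4 muscle, 2 gut and 6 hemocyte genes were. The counts went up as well as down: 20 muscle and 14 gut genes were called higher without elav5fne library 1, 16 and 14 with DESeq2, and 13 muscle genes without elav5 library 1. Mhc, muscle myosin heavy chain, did not pass the test (616, 1776 and 4643 CPM in elav5fne, 735 and 161 CPM in elav5). Counts of 4 or more are also given below without these 2 libraries where they moved by more than 1.5 times. As a check of the labelled tissue, 10 pan-neuronal markers, elav among them, had a median of 799, 793 and 703 CPM in elav5fne and 1364 and 982 CPM in elav5. Of these, 6 were called lower and 1 higher between the mutants, with a median log2 difference of -0.41, and 5 of the 6 were second-step genes. All 10 were lower in elav5fne than in Canton-S. Medians of neuronal lists below are to be read against this -0.41 as well as against that of all genes. Their second-step counts are to be read against the 5 of 6 in the same way.

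Genes of transmitter release fell as a group. Of 16 genes of the SNARE fusion machinery, 13 were lower in elav5fne than in elav5 and 1 was higher, with a median of -0.79, and 9 of the 13 were second-step genes. Between elav5 and Canton-S 4 of them were lower and none higher, with a median of -0.14. In a bulk sample, fewer neurons and less RNA per neuron cannot be told apart.

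Snap25, one of the SNAREs that drive vesicle fusion, had 2.09, 9.61 and 2.38 CPM in elav5fne, against 131 and 179 CPM in elav5 and 232, 271 and 250 CPM in Canton-S. It fell by 5.01 on the log2 scale between the mutants (SE 0.48, adjusted p = 0.000119). Its difference between elav5 and Canton-S, -0.70, did not pass the test (95% interval -1.81 to 0.40). nSyb, the neuronal synaptobrevin, had 792, 811 and 640 CPM in elav5fne and 1456 and 1512 CPM in elav5 (log2 difference -0.995, SE 0.12, adjusted p = 0.000372). Syb, the synaptobrevin used outside neurons, moved the other way, with 70.9, 64.6 and 82.6 CPM in elav5fne and 27.1 and 26.7 CPM in elav5 (1.40, SE 0.15, adjusted p = 0.000199). Other SNARE factors fell too, with log2 differences of -1.13 for Rop, the Sec1/Munc18 protein that holds syntaxin, -0.87 for Syx1A, syntaxin, and -1.08 for comt, the NSF ATPase that takes SNARE complexes apart. Snap24, a paralog of Snap25, fell by 0.64.

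Of 20 synaptic vesicle and endocytosis genes, 16 fell and none rose, 14 of them second-step genes (median -0.68). Syt7, a synaptotagmin, had 60.1, 62.6 and 55.2 CPM in elav5fne and 262 and 313 CPM in elav5, while Canton-S had 277, 273 and 284 CPM. The elav5 libraries lay on both sides of Canton-S for Syt7, and the fall between the mutants was 2.26 (SE 0.09, adjusted p = 5.81e-06). Syn, synapsin, and shi, the dynamin of vesicle retrieval, differed by -1.01 and -1.21. The scaffold of the active zone, where vesicles dock, moved less: 4 of 13 genes fell and none rose (median -0.20). nwk, an endocytic adaptor of motor neuron terminals, fell by 2.70 (SE 0.14), whereas brp, the core scaffold protein, had 955, 963 and 888 CPM in elav5fne and 1414 and 986 CPM in elav5 (-0.34, adjusted p = 0.107). Without elav5 library 2, with or without elav5fne library 3, 8 of the 13 were lower.

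Transmitter synthesis and transport changed almost throughout: 18 of 20 genes fell and none rose between the mutants (median -1.07), 13 of them second-step genes, while 4 fell and 1 rose between elav5 and Canton-S. VGAT, which loads GABA into vesicles, had 36.3, 43.7 and 32.6 CPM in elav5fne, 292 and 276 CPM in elav5 and 337, 301 and 317 CPM in Canton-S. It fell by 2.90 (SE 0.12, adjusted p = 5.81e-06), and its elav5 minus Canton-S interval ran from -0.44 to 0.12. Vmat, the vesicular monoamine transporter, had 196, 231 and 160 CPM in elav5fne and 1210 and 1086 CPM in elav5, a fall of 2.56 (SE 0.14, adjusted p = 1.19e-05). The plasma membrane transporters of dopamine and serotonin, DAT and SerT, fell by 2.28 and 2.22. VGlut, ChAT and VAChT, which load glutamate and make and load acetylcholine, differed by -1.48, -1.42 and -0.76, so the transporter genes of all these transmitters were lower but by amounts of different size. ple, tyrosine hydroxylase of the dopamine pathway, overlapped between the mutants (27.9, 45.1 and 32.6 CPM in elav5fne, 37.2 and 40.3 CPM in elav5).

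**Figure D2:**
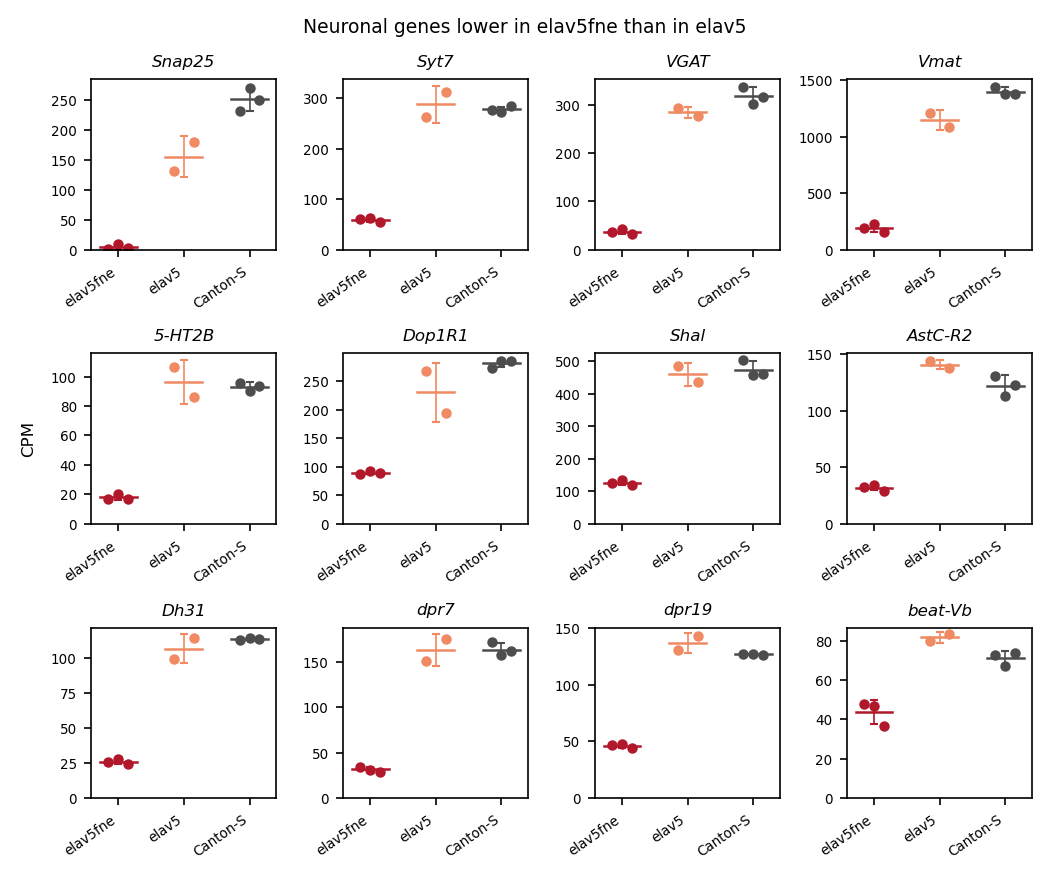
CPM of 12 genes of release, transmitter transport, excitability, peptide signalling and recognition in each library of elav5fne, elav5 and Canton-S, on linear axes that start at 0; points are libraries, lines the group mean and bars the SD. In each panel the elav5fne libraries lie below both elav5 libraries, and in most panels elav5 lies near Canton-S.

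Receptors for monoamines and the muscarinic receptors were mostly second-step genes, as were most pan-neuronal markers that fell. Of 18 genes, 17 fell and 1 rose (median -0.79), and 15 of the 17 were second-step genes. Between elav5 and Canton-S 1 gene was higher and none lower, with a median of 0.04. 5-HT2B, a serotonin receptor, had 17.0, 20.4 and 17.0 CPM in elav5fne, 107 and 85.9 CPM in elav5 and 95.9, 89.9 and 93.9 CPM in Canton-S. It fell by 2.34 (SE 0.12, adjusted p = 9.09e-06). Dop1R1, the dopamine receptor needed for learning, had 87.0, 92.5 and 88.7 CPM in elav5fne and 267 and 194 CPM in elav5, a fall of 1.34 (SE 0.12, adjusted p = 9.98e-05). The octopamine and tyramine receptor genes Octbeta3R and Oct-TyrR fell by 1.15 and 1.11, and the muscarinic receptor gene mAChR-A by 0.95. 5-HT2A was the member that rose (77.1, 70.9 and 60.3 CPM in elav5fne, 52.03 and 52.9 CPM in elav5), by 0.39, and no member was called higher under 10 of 21 alternatives.

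Fast transmitter receptors were more mixed. Of 10 nicotinic acetylcholine receptor subunits 6 fell and 1 rose. The 1 that rose, nAChRbeta3 (5.86, 2.30 and 5.21 CPM in elav5fne, 1.83 and 0.539 CPM in elav5), lost its call without elav5 library 2 (adjusted p = 0.148). nAChRalpha4 had 39.6, 48.6 and 34.3 CPM in elav5fne and 195 and 216 CPM in elav5 (-2.32, SE 0.14), while nAChRalpha5 had 1072, 1063 and 869 CPM in elav5fne and 1276 and 1177 CPM in elav5 (-0.30, adjusted p = 0.0635). Of 19 GABA and glutamate receptor genes 11 fell and 3 rose. Rdl, the main GABA-A type subunit of fly neurons, differed by -0.62, and mGluR, the metabotropic glutamate receptor, by -1.37. The 3 that rose were GluRIIC, GluRIIA and GluRIID, subunits of the muscle receptor at the neuromuscular junction. GluRIIC had 18.04, 17.7 and 22.8 CPM in elav5fne and 2.43 and 1.83 CPM in elav5, against the muscle markers given above, and the part of muscle RNA in this was not tested. Lcch3, a GABA receptor subunit, had 62.8, 70.6 and 67.4 CPM in elav5fne, 129 and 159 CPM in elav5 and 74.99, 79.5 and 74.2 CPM in Canton-S, so elav5 stood above both others.

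Excitability genes followed the same direction. Of 21 potassium channel genes 13 fell and 2 rose (median -0.45), 9 of the 13 being second-step genes, and 1 rose without elav5 library 2 and elav5fne library 3. Shal, which carries a fast dendritic potassium current, had 124, 134 and 121 CPM in elav5fne, 485 and 436 CPM in elav5 and 505, 459 and 460 CPM in Canton-S, a fall of 1.86 (SE 0.08, adjusted p = 7.01e-06). Shab, a delayed rectifier, and slo, the calcium-activated channel, fell by 1.68 and 1.12. Sh, the Shaker channel, differed by -0.61. Of 17 sodium and calcium channel genes 11 fell and none rose, and between elav5 and Canton-S 7 had already fallen and 1 had risen. Teh4, an auxiliary subunit of the para sodium channel, had 28.2, 31.5 and 25.4 CPM in elav5fne, 248 and 266 CPM in elav5 and 187, 194 and 185 CPM in Canton-S. It was higher in elav5 than in Canton-S (0.44) and fell by 3.14 between the mutants (SE 0.10, adjusted p = 3.06e-06). para itself differed by -0.47, and cac, the presynaptic calcium channel, did not pass the test (0.13, adjusted p = 0.243).

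Peptide signalling split between ligands and receptors. Of 39 neuropeptide and peptide hormone precursors, 32 fell and 4 rose between the mutants (median -1.21), and 18 were already lower in elav5 than in Canton-S (median -0.47). Ilp2, which encodes an insulin-like hormone made in the brain, had 1.12, 2.55 and 1.34 CPM in elav5fne, 28.2 and 47.5 CPM in elav5 and 81.3, 95.9 and 84.6 CPM in Canton-S, so each added mutation went with a lower level. The fall between the mutants was 3.85 (SE 0.27, adjusted p = 2.58e-05). Pdf, the peptide of clock neurons, had 0.312, 1.12 and 0.280 CPM in elav5fne, 10.7 and 7.13 CPM in elav5 and 44.4, 47.0 and 38.5 CPM in Canton-S. Capa, FMRFa and Eh, which serve diuresis, muscle modulation and ecdysis, also stood lower at each step. Dh31, a diuretic peptide that also acts in sleep circuits, was a second-step gene: it had 25.7, 27.5 and 24.1 CPM in elav5fne, 99.0 and 114 CPM in elav5 and 112, 114 and 113 CPM in Canton-S (-2.002, SE 0.09, adjusted p = 6.51e-06). Proc, the proctolin precursor, was no lower in elav5 (299 and 368 CPM) than in Canton-S (251, 229 and 266 CPM), yet had 40.4, 48.0 and 34.8 CPM in elav5fne. The 4 precursors that rose were Nplp2, ETH, CNMa and ITP.

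The receptors of these peptides did not fall as a group in elav5, where 3 of 35 rose and 1 fell against Canton-S, with a median of 0.11. Between the mutants 24 fell and 1 rose (median -0.70), and 17 of the 24 were second-step genes. AstC-R2, an allatostatin C receptor, had 32.7, 33.8 and 29.3 CPM in elav5fne, 144 and 138 CPM in elav5 and 131, 113 and 122 CPM in Canton-S, a fall of 2.11 (SE 0.09, adjusted p = 6.51e-06). SIFaR, PK2-R1 and FMRFaR, receptors for SIFamide, pyrokinin and FMRFamide, fell by 1.95, 1.94 and 1.25. AkhR, the adipokinetic hormone receptor best known from fat body, was the 1 that rose (1.18, 3.19 and 5.07 CPM in elav5fne, 0.766 and 0.269 CPM in elav5), and without elav5 library 2 and elav5fne library 3 none did. Peptide-processing enzymes and dense-core vesicle proteins had 8 of 17 genes lower and none higher, among them amon, the prohormone convertase (-0.79), and Pal2, a peptide amidation enzyme (-1.50).

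Genes of cell recognition at synapses fell mainly at the second step, with medians near the -0.41 of the pan-neuronal markers. Of those 10 markers 6 fell, and of all genes 16.9%. Dpr proteins and their DIP partners are immunoglobulin proteins that pair in a cell-specific code, and Beat and Side proteins form a second such code. Of 32 dpr and DIP genes 19 fell and none rose between the mutants (median -0.54), 16 of them second-step genes, whereas between elav5 and Canton-S 1 rose and none fell (median 0.04). dpr21 had 0.498, 2.30 and 0.364 CPM in elav5fne, 52.4 and 69.0 CPM in elav5 and 56.2, 64.3 and 60.0 CPM in Canton-S, a fall of 5.02 (SE 0.35, adjusted p = 2.55e-05). dpr7 had 34.5, 31.1 and 28.6 CPM in elav5fne, 151 and 176 CPM in elav5 and 172, 158 and 162 CPM in Canton-S, a fall of 2.34 (SE 0.10, adjusted p = 6.51e-06). The elav5 libraries lay on both sides of those of Canton-S for both genes. dpr19 and DIP-lambda fell by 1.55 and 1.73, while dpr11 and DIP-alpha, at -0.38 and -0.29, did not pass the test. Of 21 beat and side genes 12 fell and none rose (median -0.46), 10 of them second-step genes. The falls of the 5 with the smallest p were shallower than those of dpr21 or dpr7. beat-Ia, a secreted protein that lets motor axons leave their bundle, fell by 1.03, and beat-Vb by 0.90.

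Guidance and adhesion genes went both ways. Of 35 guidance ligands and receptors 10 rose and 9 fell (median -0.06), where 27.3% of all genes rose and 16.9% fell. Without elav5 library 2 and elav5fne library 3, 7 rose and 10 fell. The rises numbered 5 without elav5 library 2 and 6 without elav5fne library 1 or 2, and the falls 5 without elav5 library 1. Lar, a receptor phosphatase of axon targeting, had 32.6, 35.4 and 29.8 CPM in elav5fne, 101 and 100 CPM in elav5 and 97.1, 94.6 and 90.3 CPM in Canton-S (-1.60, SE 0.09, adjusted p = 1.12e-05). Ptp4E, another receptor phosphatase, rose by 1.04. Of 37 adhesion and synapse organisation genes 15 fell and 7 rose, with 12 of the falls and 5 of the rises among second-step genes, and 11 rose without elav5 library 1. Nlg1, a neuroligin, had 87.9, 87.0 and 87.7 CPM in elav5fne, 3.99 and 2.10 CPM in elav5 and 3.52, 5.27 and 4.23 CPM in Canton-S, a rise of 4.49 (SE 0.22, adjusted p = 7.95e-06). The neuroligins Nlg2 and Nlg3 fell. kek2, a leucine-rich repeat protein of motor neuron terminals, had 383, 375 and 287 CPM in elav5fne, 1029 and 726 CPM in elav5 and 445, 408 and 425 CPM in Canton-S, so it was highest in elav5.

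Genes of neural progenitors rose. Neuroblasts, the stem cells of the fly CNS, divide asymmetrically and use polarity proteins and a set of zinc finger and helix-loop-helix factors. Of 32 such genes 22 rose and 1 fell between elav5 and elav5fne (median 0.80), 11 of the 22 being second-step genes, and between elav5 and Canton-S 7 rose and 3 fell. baz, the Par-3 polarity protein, had 212, 199 and 204 CPM in elav5fne, 38.5 and 26.4 CPM in elav5 and 26.7, 26.7 and 26.1 CPM in Canton-S, a rise of 2.65 (SE 0.14, adjusted p = 9.97e-06). insc, which orients the spindle, had 114, 96.1 and 88.8 CPM in elav5fne and 18.3 and 13.95 CPM in elav5 (2.56, SE 0.14, adjusted p = 1.17e-05). mira, which carries fate determinants to the daughter cell, and dpn, a neuroblast self-renewal factor, rose by 2.10 and 1.82. ase rose at both steps, with 229, 210 and 182 CPM in elav5fne, 22.2 and 26.7 CPM in elav5 and 15.5, 17.0 and 15.1 CPM in Canton-S. pros, the differentiation factor of the daughter cell, did not pass the test (194, 204 and 181 CPM in elav5fne, 187 and 124 CPM in elav5), and the 1 member that fell was aPKC (-0.63).

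Notch signalling genes rose in the same libraries. Notch is the receptor by which neighbouring neural cells take different fates, and it induces E(spl) and Bearded family genes. Of 22 Notch pathway and Bearded family genes 17 rose and none fell between the mutants (median 1.499), 8 of them second-step genes, while between elav5 and Canton-S 2 rose and 2 fell (median 0.11). N, the receptor gene, had 418, 409 and 385 CPM in elav5fne, 67.3 and 36.7 CPM in elav5 and 56.8, 55.3 and 50.3 CPM in Canton-S, a rise of 2.99 (SE 0.21, adjusted p = 2.79e-05). dx, a ubiquitin ligase that acts on the receptor, had 51.6, 48.6 and 44.4 CPM in elav5fne and 10.7 and 9.85 CPM in elav5, and rose by 2.12. Dl, the ligand, rose by 1.66, and Tom and E(spl)m4-BFM of the Bearded family by 2.67 and 3.11. Of 16 proneural and E(spl) genes 15 rose and 1, emc, fell (median 2.40). Here only 2 of the risen genes were second-step genes, and 5 had risen between elav5 and Canton-S. E(spl)m7-HLH had 73.7, 58.5 and 35.9 CPM in elav5fne, 3.33 and 7.48 CPM in elav5 and 1.57, 0.999 and 0.893 CPM in Canton-S. sc, a proneural factor, rose by 3.53 between the mutants (SE 0.20, adjusted p = 1.17e-05).

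**Figure D3:**
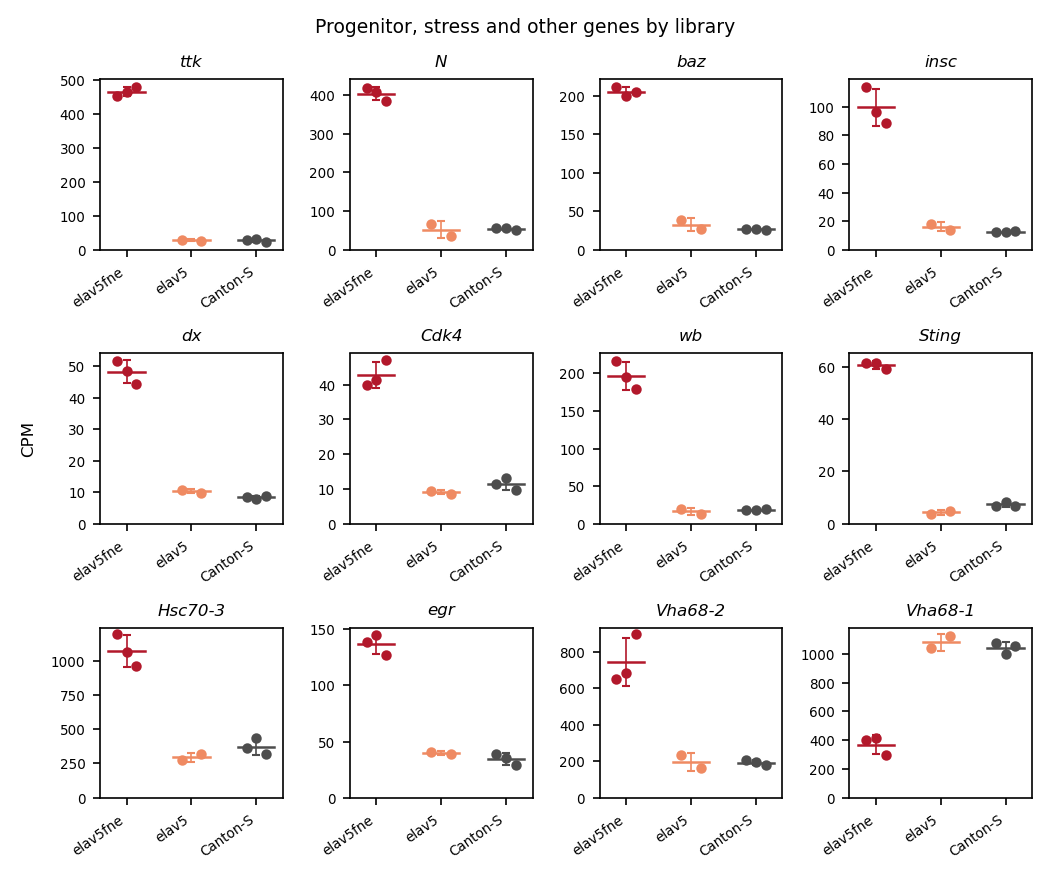
CPM of 12 genes of cell fate, polarity, Notch signalling, cell cycle, basement membrane, immunity, protein folding, injury signalling and the proton pump in each library of elav5fne, elav5 and Canton-S, on linear axes that start at 0; points are libraries, lines the group mean and bars the SD. 11 genes are higher in elav5fne than in both other genotypes, and Vha68-1 is lower.

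The largest second-step rise was that of ttk, which encodes the Tramtrack BTB zinc finger repressors that block neuronal fate in other cells. It had 452, 465 and 478 CPM in elav5fne, 30.0 and 26.8 CPM in elav5 and 27.97, 30.9 and 23.4 CPM in Canton-S, a rise of 3.99 (SE 0.12, adjusted p = 3.06e-06). fru, another BTB factor gene, had 195, 205 and 199 CPM in elav5fne, 19.9 and 13.6 CPM in elav5 and 49.9, 43.9 and 45.4 CPM in Canton-S, so it was lowest in elav5. ewg, a neuronal transcription factor gene whose splicing ELAV is known to control, had 735, 695 and 675 CPM in elav5fne and 256 and 209 CPM in elav5 (1.59, SE 0.12, adjusted p = 3.32e-05). FoxP, a forkhead factor of neuron subsets, nearly vanished, with 0.280, 1.03 and 0.252 CPM in elav5fne, 26.5 and 35.7 CPM in elav5 and 48.1, 55.5 and 38.2 CPM in Canton-S.

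Most factors of neuron identity moved little by comparison. Of 40, 8 fell and 4 rose (median -0.15), and the percentage called for all genes was 44.2%. Among 20 temporal identity factors, which neuroblasts use in turn, 9 rose and 5 fell. cas rose by 2.13 and grh by 1.86, while pdm2 had 14.5, 15.8 and 11.9 CPM in elav5fne and 46.9 and 56.4 CPM in elav5, a fall of 1.81 (SE 0.16, adjusted p = 7.24e-05). Of 11 Hox genes and cofactors 5 fell and none rose (median -0.32), all 5 second-step genes, and none was called between elav5 and Canton-S. Ubx, which sets posterior thoracic identity, differed by -0.73 and the cofactor hth by -0.49. The Hox count ranged from 1 to 6 over the alternatives. Without elav5 library 1 it was 1, and Ubx lost its call (-0.57, adjusted p = 0.0592).

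Cell cycle and replication genes rose with the progenitor genes. Of 36 cell cycle genes 24 rose and 1 fell (median 0.57), 9 of the 24 being second-step genes, and 15 rose with quantile normalization. Cdk4, a G1 kinase, had 40.0, 41.4 and 47.0 CPM in elav5fne, 9.42 and 8.59 CPM in elav5 and 11.6, 13.2 and 9.78 CPM in Canton-S, a rise of 2.13 (SE 0.14, adjusted p = 2.04e-05). CycA and stg, which drive entry into mitosis, rose by 1.60 and 1.63. dap, the inhibitor that stops the cycle, also rose, with 292, 269 and 215 CPM in elav5fne, 52.9 and 61.4 CPM in elav5 and 20.2, 19.1 and 21.9 CPM in Canton-S. Of 31 DNA replication genes 17 rose between the mutants (median 0.71), yet 13 were lower in elav5 than in Canton-S and only 1 was a second-step gene. The helicase subunit gene Mcm6 had 34.4, 29.6 and 29.3 CPM in elav5fne, 14.1 and 12.6 CPM in elav5 and 23.99, 26.4 and 19.8 CPM in Canton-S. The replication count was 8 without elav5 library 2, 9 without elav5fne library 3 as well, and 7 with quantile normalization.

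Growth factor genes rose as well. Of 32 Wnt, FGF and EGF signalling genes 21 rose and 1 fell (median 0.57), although only 3 were second-step genes. grk, an EGF receptor ligand best known from the oocyte, had 35.6, 34.4 and 26.9 CPM in elav5fne and 1.30 and 1.26 CPM in elav5, and wntD, a Wnt ligand, had 36.3, 25.5 and 19.1 CPM in elav5fne and 0.333 and 0.659 CPM in elav5. wntD passed the filter through elav5fne alone, so its call supports nothing about direction. vn, a second EGF receptor ligand, rose by 1.66. vas, a germline helicase, had 31.2, 29.5 and 29.7 CPM in elav5fne, 3.90 and 4.13 CPM in elav5 and 1.03, 0.878 and 0.736 CPM in Canton-S. Of 13 piRNA genes 5 rose with none lower. That is 38.5% called, where 44.2% of all genes were called and 27.3% rose, so the count says little about this list.

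Protein folding in the endoplasmic reticulum was a function that rose at the second step. Of 24 chaperone and stress genes of this compartment 20 rose and none fell (median 0.55), 14 of them second-step genes, and 3 had fallen between elav5 and Canton-S. Hsc70-3, the BiP chaperone, had 1194, 1060 and 961 CPM in elav5fne, 272 and 320 CPM in elav5 and 361, 437 and 317 CPM in Canton-S, a rise of 1.85 (SE 0.15, adjusted p = 5.61e-05). Gp93, the other main chaperone of this compartment, rose by 2.29, and Xbp1, the stress transcription factor gene, by 0.62. With quantile normalization 13 of the 24 rose. Of 19 cytosolic chaperones, Hsc70-4 was called higher (0.62) and none lower, and no member was called higher with TMM, median-ratio scaling or edgeR, or without elav5fne library 1 or elav5 library 1.

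Injury and death genes rose in part from the first step on. Of 28 JNK and injury signalling genes 19 rose and 4 fell (median 0.61), 9 of the 19 being second-step genes. egr, the TNF ligand of the fly, had 138, 145 and 127 CPM in elav5fne, 41.0 and 38.8 CPM in elav5 and 39.0, 35.4 and 29.01 CPM in Canton-S, a rise of 1.749 (SE 0.13, adjusted p = 2.88e-05). Traf4, an adaptor of that pathway, rose by 1.98, whereas bsk, the JNK kinase itself, fell by 0.68. Of 17 apoptosis genes 9 rose and 2 fell. The death inducers grim, rpr and skl were each higher at both steps. grim had 42.2, 33.6 and 30.8 CPM in elav5fne, 8.06 and 7.66 CPM in elav5 and 1.09, 1.33 and 0.972 CPM in Canton-S, which is 2.03 between the mutants and 2.06 between elav5 and Canton-S on the log2 scale. The count of injury genes that rose was 12 without elav5 library 2 and 14 without both elav5 library 2 and elav5fne library 3, and it ranged from 12 to 19 over the alternatives.

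Immune and glutathione transferase genes rose in elav5fne too. Of 26 immune genes 16 rose and 1 fell (median 1.01), 4 of the 16 being second-step genes. Sting, a sensor adaptor of innate immunity, had 61.7, 61.5 and 59.1 CPM in elav5fne, 3.76 and 4.94 CPM in elav5 and 6.98, 8.39 and 6.81 CPM in Canton-S, a rise of 3.54 (SE 0.14, adjusted p = 4.81e-06). Myd88, an adaptor of Toll signalling, and Rel, the NF-kappaB factor of the Imd pathway, rose by 1.59 and 1.60. Of 32 glutathione transferase genes 19 rose and none fell, and 12 had risen between elav5 and Canton-S. GstE11 had 41.3, 32.9 and 37.3 CPM in elav5fne and 2.20 and 3.56 CPM in elav5. Of 60 cytochrome P450 genes 22 rose and 7 fell. That is 48.3% called, near the 44.2% of all genes, of which 27.3% rose and 16.9% fell. The rises numbered 13 without elav5 library 2 and ranged from 11 to 28 genes over the alternatives. Cyp6a13 had 21.3, 19.3 and 21.5 CPM in elav5fne, 0.466 and 0.659 CPM in elav5 and 0.577, 0.545 and 0.499 CPM in Canton-S. It too passed the filter through elav5fne alone. Library 3 was the highest elav5fne library for these lists, as for the muscle, gut and hemocyte markers: relative to the Canton-S mean, list medians in elav5fne were 0.89, 0.97 and 1.57 log2 units for immune genes, 1.31, 1.62 and 2.07 for glutathione transferases and 0.45, 0.89 and 1.32 for cytochrome P450 genes. The part of RNA from other tissues was not tested.

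The basement membrane, the sheet of laminin and collagen around the CNS, had 13 of 14 genes higher and none lower (median 2.16), 1 of them a second-step gene. The median was 1.28 without elav5 library 2 and elav5fne library 3, and it was -0.90 between elav5 and Canton-S. wb, a laminin alpha chain, had 216, 195 and 179 CPM in elav5fne, 19.3 and 13.3 CPM in elav5 and 18.1, 17.7 and 19.9 CPM in Canton-S, a rise of 3.53 (SE 0.15, adjusted p = 6.51e-06). Its elav5fne libraries were close to each other. The collagen genes were not: vkg had 338, 383 and 981 CPM in elav5fne, 138 and 8.71 CPM in elav5 and 367, 285 and 441 CPM in Canton-S. Only elav5fne library 3 was above Canton-S for vkg, and vkg (adjusted p = 0.0566) and Col4a1 (adjusted p = 0.0722) lost their calls with edgeR. Col4a1 also lost its call without elav5fne library 3 (adjusted p = 0.0521) or elav5 library 2 (adjusted p = 0.0843). LanB1, a laminin beta chain, had 383, 387 and 500 CPM in elav5fne, 95.9 and 35.3 CPM in elav5 and 132, 135 and 121 CPM in Canton-S. Hemocytes and fat body make collagen, and the hemocyte markers above had the same library order at their extremes. The hemocyte list contains vkg and Col4a1 themselves, so this likeness is in part built in. The part of such cells was not tested.

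**Figure D4:**
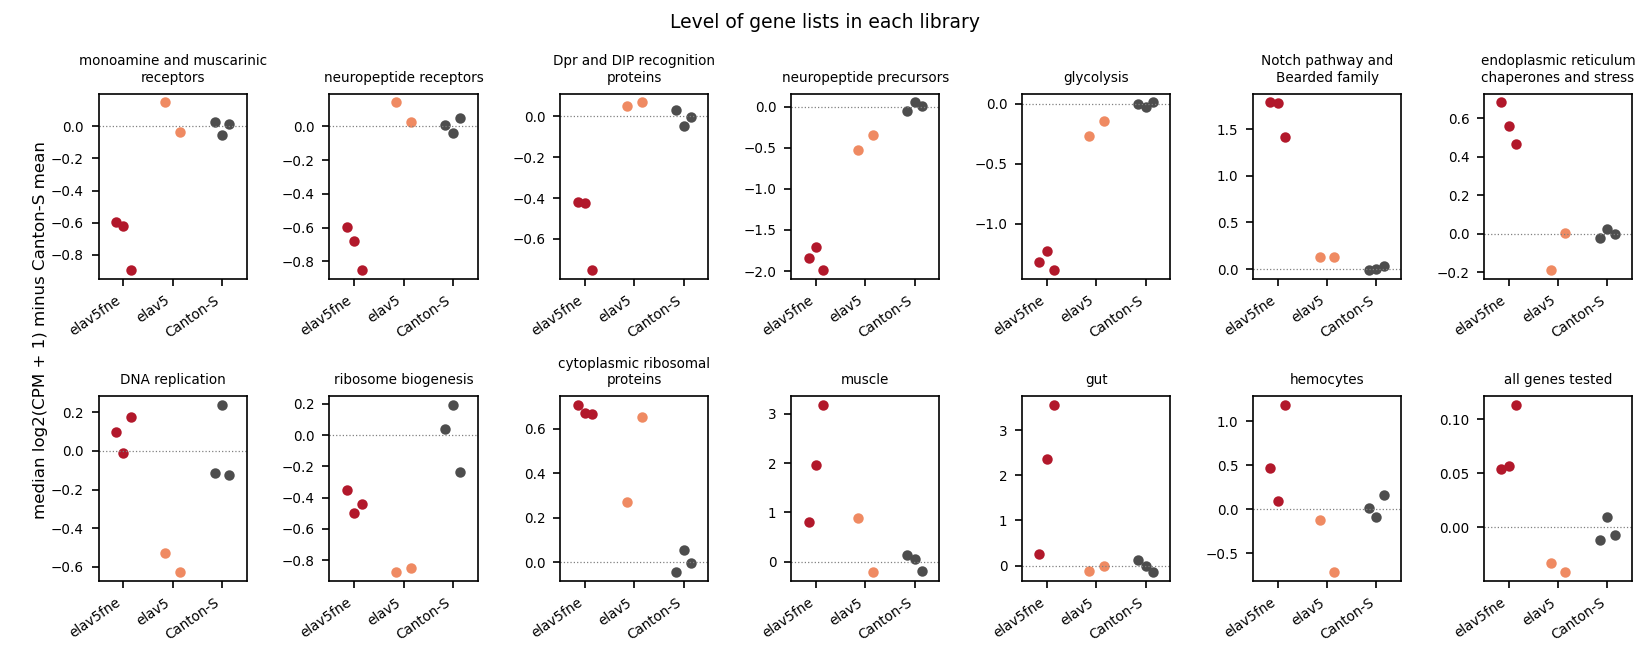
Level of 13 gene lists and of all genes tested in each library, as the median over members of log2(CPM + 1) minus the mean of the 3 Canton-S libraries (log2 units, each panel with its own axis); points are libraries of elav5fne, elav5 and Canton-S, and the dotted line marks the Canton-S mean. Receptor and recognition lists are near 0 in elav5 and low in elav5fne, DNA replication is low in elav5 only, and muscle and gut rise in elav5fne libraries 2 and 3.

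Genes of glycolysis fell. Of 18 genes of glycolysis and trehalose use 12 fell and 4 rose (median -1.12), 9 of the 12 being second-step genes, and 4 had fallen between elav5 and Canton-S. Pglym78, phosphoglycerate mutase, had 319, 328 and 289 CPM in elav5fne, 878 and 1038 CPM in elav5 and 858, 869 and 865 CPM in Canton-S, a fall of 1.61 (SE 0.10, adjusted p = 1.38e-05). Tpi, Gapdh1, Eno and PyK, which act before and after it, fell by 1.46, 1.15, 1.28 and 1.28. The enzymes that rose were fbp, which runs the pathway backwards, Tps1 and Treh, which make and split trehalose, and Pfrx. Of these 4, 2 rose without elav5 library 2 and elav5fne library 3. fbp had 17.3, 47.1 and 63.1 CPM in elav5fne and 8.59 and 9.76 CPM in elav5, with library 1 the lowest and library 3 the highest of the elav5fne libraries, as for the summed muscle and gut markers. The respiratory chain moved less, with 25 of 68 genes lower and 1 higher (median -0.28), a count of 15 without those 2 libraries, 5 without elav5 library 2 alone and 40 without elav5 library 1, and as high as 53 over the alternatives. Idh, the NADP-dependent isocitrate dehydrogenase, rose by 2.44 among 20 genes listed with the tricarboxylic acid cycle, of which 5 fell (3 to 12 over the alternatives).

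Paralogs of the vacuolar proton pump moved in opposite directions. Of 22 subunit genes 6 rose and 5 fell, and over all genes 27.3% rose and 16.9% fell, so the counts say little about the pump as a whole. Vha68-1, a catalytic subunit A gene, had 400, 413 and 294 CPM in elav5fne, 1039 and 1123 CPM in elav5 and 1076, 998 and 1054 CPM in Canton-S, a fall of 1.56 (SE 0.14, adjusted p = 0.000101). Its paralog Vha68-2 had 652, 688 and 897 CPM in elav5fne, 233 and 163 CPM in elav5 and 205, 194 and 178 CPM in Canton-S, a rise of 1.92 (SE 0.18, adjusted p = 0.000115). Vha100-1, the neuronal form of the membrane subunit a, differed by -0.44 and Vha100-2 by 1.23. With nSyb and Syb these are 3 pairs in which one copy fell and the other rose between the mutants, and they were picked after their values were seen. Reads of close paralogs can be split in counting, and how that was handled is not given in the sources used here.

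Translation genes differed in elav5 already. The share that rose between the mutants was 22.4% of cytoplasmic ribosomal protein, 50% of ribosome biogenesis and 27.8% of aminoacyl-tRNA synthetase genes. Over all genes it was 27.3%, so the rises among ribosomal protein and synthetase genes say little about those lists. Of 85 cytoplasmic ribosomal protein genes 68 were higher in elav5 than in Canton-S and 1 lower. Between the mutants 19 rose and none fell (median 0.23), but 5 rose with TMM, 77 without elav5 library 2, 78 without elav5fne library 3 as well, and 7 or 8 without elav5 library 1 or elav5fne library 1 or 2. Relative to the Canton-S mean, the median of these genes stood at 0.71, 0.67 and 0.66 log2 units in the elav5fne libraries and at 0.27 and 0.65 in elav5 libraries 1 and 2, so the step at which they moved depends on the elav5 library. Of 26 ribosome biogenesis genes 21 were lower in elav5 than in Canton-S, and 13 rose between the mutants (7 without elav5 library 2, and 5 without elav5fne library 3 as well). Fib, fibrillarin, had 53.7, 47.5 and 53.5 CPM in elav5fne, 33.6 and 23.9 CPM in elav5 and 55.2, 64.6 and 54.5 CPM in Canton-S. Of 18 aminoacyl-tRNA synthetase genes 11 were lower in elav5 than in Canton-S, and 5 rose between the mutants (1 without elav5 library 1, 3 without elav5fne library 1, and 2 without elav5 library 2 and elav5fne library 3). Those groups, with DNA replication, stood lowest in elav5, and the same elav5 libraries enter both differences. The proteasome was nearly still, with 1 of 33 genes higher and 2 lower.

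RNA-binding and 3' end genes bear on the known role of the family. Of 36 neuronal RNA-binding protein genes 11 fell and 9 rose. how, a KH-domain splicing factor best known from muscle and glia, had 106, 117 and 126 CPM in elav5fne, 32.7 and 21.6 CPM in elav5 and 25.9, 22.3 and 26.1 CPM in Canton-S, a rise of 2.08 (SE 0.17, adjusted p = 5.25e-05). Syp, the Syncrip protein of late neuroblasts, rose by 3.42 and Tis11, which promotes decay of AU-rich RNA, by 1.78. Of 17 cleavage and polyadenylation factors 2 rose and 1 fell, while 7 had fallen between elav5 and Canton-S. Of 38 genes known for long neural 3' ends 13 rose and 11 fell (median 0.09), so gene-level amounts did not move one way. Ank2, the giant axonal ankyrin, had 791, 825 and 633 CPM in elav5fne, 3486 and 2971 CPM in elav5 and 3634, 3844 and 3674 CPM in Canton-S, a fall of 2.11 (SE 0.14, adjusted p = 1.89e-05). Cam, calmodulin, fell by 1.45.

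Activity and clock genes gave smaller groups. Of 7 activity-regulated genes 3 rose and 2 fell (median 0.37). Hr38, a nuclear receptor gene induced by neuronal firing, had 8.10, 9.81 and 10.4 CPM in elav5fne, 42.5 and 65.3 CPM in elav5 and 50.6, 55.4 and 54.5 CPM in Canton-S (-2.37, SE 0.18, adjusted p = 4.02e-05), and sr, another such gene, fell by 2.05. Arc1, a capsid-forming gene tied to synaptic plasticity, had 448, 305 and 383 CPM in elav5fne, 293 and 285 CPM in elav5 and 31.2, 44.7 and 34.3 CPM in Canton-S. It was higher in elav5 than in Canton-S by 2.96, and the difference between the mutants did not pass the test (0.37, adjusted p = 0.142). Arc2, its paralog, was among the 3 that rose, with 10.6, 7.12 and 11.1 CPM in elav5fne and 4.93 and 4.73 CPM in elav5 (0.84, SE 0.22, adjusted p = 0.0166), and it lost its call without elav5 library 1 (adjusted p = 0.0568) or 2 (adjusted p = 0.0764). Of 15 clock genes 4 rose and 4 fell, near the 27.3% and 16.9% of all genes, and 2 fell without elav5fne library 2 or 3. cry, the blue light receptor, had 31.1, 26.7 and 23.5 CPM in elav5fne and 1.63 and 1.65 CPM in elav5.

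Glial genes split, with 6 of 26 higher and 9 lower. repo, the general glial factor, overlapped (120, 143 and 85.3 CPM in elav5fne, 117 and 75.1 CPM in elav5). The astrocyte transporter genes Eaat1 and Eaat2 fell by 0.67 and 1.03, and the midline and cortex glial gene wrapper fell by 1.53. loco, a G protein regulator of the glial barrier, rose by 1.12. The gap junction genes Inx2 and ogre, used by glia, rose by 0.80 and 0.91, while shakB, the neuronal innexin, fell by 0.80 (SE 0.07, adjusted p = 8.68e-05). ogre had 176, 177 and 158 CPM in elav5fne, 91.1 and 89.2 CPM in elav5 and 150, 131 and 135 CPM in Canton-S, so elav5 was its low point.

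The roX RNAs of dosage compensation did not pass the main test between the mutants. Of 11 genes of sex and dosage compensation 4 rose and 1 fell, which is 45.5% called, near the 44.2% of all genes. Those that rose included tra, mof and dsx, which lost their calls with quantile normalization. The 1 that fell, mle (-0.23), lost its call with a replicate block. The male-specific roX1 RNA had 3671, 3555 and 3199 CPM in elav5fne, 2987 and 3835 CPM in elav5 and 1491, 1416 and 1444 CPM in Canton-S (lncRNA:roX1, 0.04 between the mutants, 95% interval -0.27 to 0.34, adjusted p = 0.844). Without elav5 library 2 and elav5fne library 3 it was called higher (0.27, adjusted p = 0.0181). roX2 (lncRNA:roX2) differed by -0.29 (95% interval -0.76 to 0.17, adjusted p = 0.259). It was called lower with DESeq2 (-0.47, adjusted p = 0.0451), and its difference was -0.70 without elav5 library 1. Both were higher in elav5 than in Canton-S, by 1.22 and 1.73, so the mutant libraries share a level of these RNAs that Canton-S does not have. The sex of the larvae is not given in the labels.

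**Figure D5:**
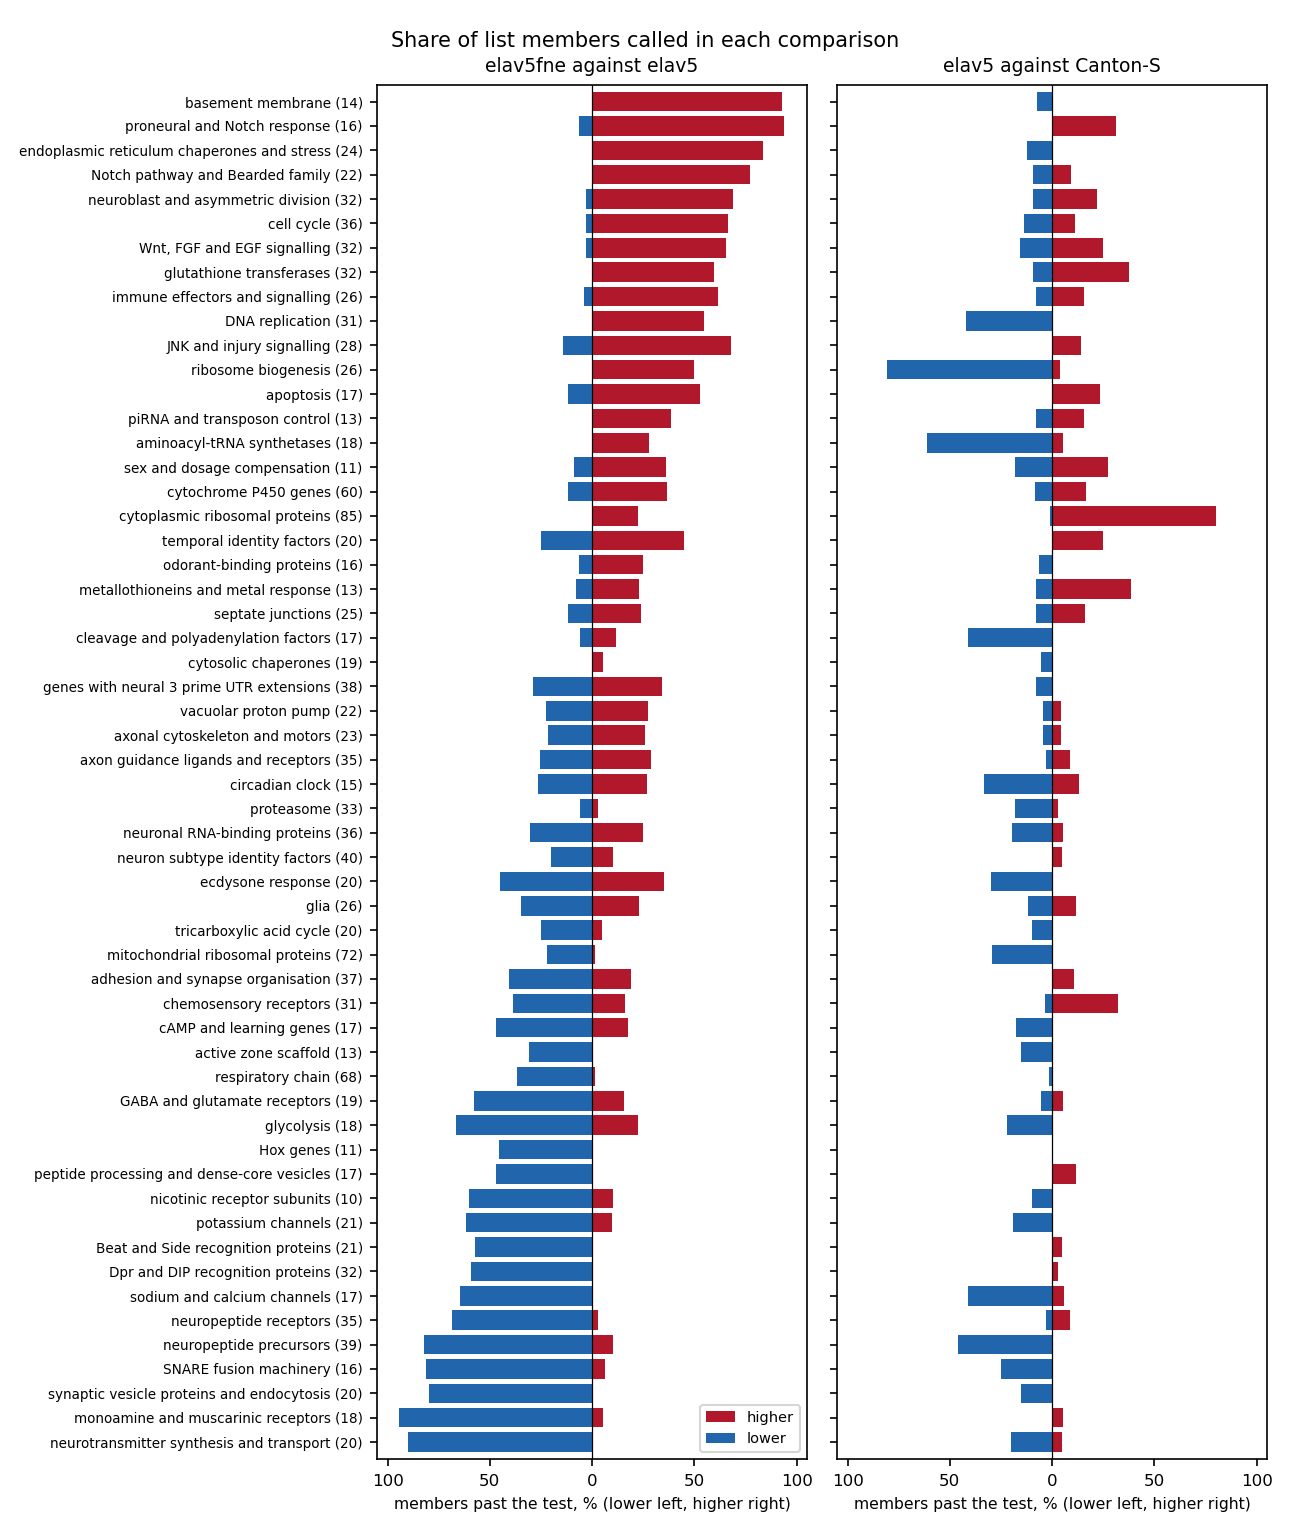
Share of members of each gene list past the limma threshold, lower to the left and higher to the right of 0 (percent of members tested, whose number follows each name), for elav5fne against elav5 in the left panel and elav5 against Canton-S in the right panel. Release, receptor and recognition lists are almost all blue at left and short at right, and ribosome biogenesis and ribosomal proteins are long at right.

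The genes with the largest differences were of mixed function. Besides w, Nlg1 and ttk, the 12 largest rises included CG15279, Adgf-A, Kmn1, meso18E, wntD, CG11409, grk and Cyp6a13. Adgf-A, a secreted adenosine deaminase, had 92.9, 87.6 and 88.5 CPM in elav5fne and 2.53 and 3.71 CPM in elav5. Besides dpr21, Snap25, FoxP and Ilp2, the 12 largest falls held Hs3st-B, Setd3, Gpb5, CG14431, CG14274, CG1909, CG40498 and CG6282. CG1909 was a second-step gene with 23.3, 28.7 and 21.9 CPM in elav5fne, 271 and 288 CPM in elav5 and 294, 323 and 338 CPM in Canton-S. In all 12 of the largest falls library 2 was the highest of the elav5fne libraries, as it was for the residual fne and elav signals. Without it the log2 differences were -5.42 for dpr21, -5.58 for Snap25 and -4.58 for Setd3, and all 12 were larger in size. Whether library 2 holds some RNA of another genotype was not tested, so the residual levels of these genes are uncertain. It was also the highest in 309 of the 530 genes called lower by at least 1 on the log2 scale (5.1% of genes tested; 1240, or 11.9%, were called higher by as much), against 139 for library 1 and 82 for library 3. Setd3 had 0.0935, 1.15 and 0.0280 CPM in elav5fne and 24.5 and 24.1 CPM in elav5. A fold change of such a gene on the log2(CPM + 1) scale understates its change.

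Position and length of the called genes were read last. On chromosome 4, the small heterochromatin-rich autosome, 38.1% of 97 genes fell and 15.5% rose, with a median of -0.18. On chromosome X 13.2% of 1725 genes fell and 31.7% rose, with a median of 0.20, and on the other arms 16.8% to 18.2% fell. Syt7, mGluR, dpr7, unc-13, onecut and CG1909 lie on chromosome 4. Protein-coding genes that fell had a median span of 4.65 kb, those that rose 3.51 kb and those not called 2.35 kb. Their mean level differed as well, with medians of 67.4, 26.2 and 18.7 CPM over the mutant libraries, so span and level were not separated here.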

How the data were processed

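The deposited table gives CPM values per gene for 8 libraries, which the authors made from reads of stranded total RNA libraries (TruSeq kit, per the labels' protocols) aligned with HISAT2 to dm6, per the submitters' processing notes. Sources used here do not give versions, read counter, annotation or strand setting, so values of antisense and overlapping genes are uncertain. Low values were whole multiples of 1 read for 100% of values (tolerance 0.01), which gave the reads per library. Gene IDs were matched to the Ensembl BDGP6.54 annotation (17710 of 17807), and 55 symbols were filled from it. The 38 mitochondrial genes were listed at 0.

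The main test was limma 3.58.1 in R 4.3.3 on log2(CPM + 1), with the trend option, 1 mean per genotype and the 8 libraries in one fit. Benjamini-Hochberg adjustment ran over the 10399 genes. The spread is shared by the genotypes, which matters most for the 2 elav5 libraries. Members, contrasts and the 70 gene lists (written from general knowledge, 2021 distinct genes, 1577 tested) were chosen with earlier results of these data known. List counts are descriptions and no set test was run. The naming rule took the 3 family genes, the 12 largest rises and falls, the same among second-step genes, the 5 called members with the smallest p of each list, the 2 highest markers of each tissue, the neighbours of elav and fne, and dosage genes. Other members are named to show the range of their list and were chosen after their values were seen.

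Alternatives were quasi-likelihood edgeR 4.0.16 with TMM, DESeq2 1.42.0 (both from recovered reads), pseudocounts of 0.1 and 5 CPM, other filters and scalings, a replicate block, a fit of the 5 mutant libraries, limma without the trend, and libraries left out. The fit was also run on simulated data with the same dispersion for every gene and no tissue differences between libraries. That run cannot show how the fit behaves under the library differences seen here.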

Additional observations from a re-analysis of the deposited data

How the results depend on the processing

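Depth limited few results, since 3 reads were below 0.1 CPM, but 2 libraries of elav5 limit every comparison. The number of genes called between elav5fne and elav5 was 4595, with 3383 to 4386 when 1 library was left out, 4307 with edgeR (3857 shared), 4879 with DESeq2 (4085 shared), 3626 in a fit of the 5 mutant libraries, and 3666 without elav5 library 2 and elav5fne library 3. Genes lower numbered 1755, and 2697 with quantile normalization, which sets every library to 1 distribution. Genes called between elav5 and Canton-S numbered 2065, with 796 to 2488 when 1 library was left out. The cause was not tested. No gene of the naming rule that was called in the main fit changed sign under any alternative run. Genes named outside that rule were not checked in this way. Among list counts of 5 or more, those that moved by over 1.5 times in the most of 21 alternatives were ribosomal proteins higher (15), gut markers higher (13), respiratory chain and tricarboxylic acid cycle lower (12 each) and mitochondrial ribosomal proteins lower (10). For replicate pairing, deviations from the genotype mean were correlated between same-numbered libraries. The correlations were 0.11 and -0.14 for elav5fne and elav5, and -0.37, -0.13 and -0.31 for elav5fne and Canton-S. For elav5 and Canton-S they were 0.07 and 0.07. Deviations of the 2 elav5 libraries mirror each other, so these few values cannot show whether the numbers pair samples. With the replicate number as a block 3554 genes were called between the mutants and 887 between elav5 and Canton-S.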
